A study of Homo sapiens with 10 samples.

Results

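TFIIH is the general transcription factor that opens promoter DNA and phosphorylates RNA polymerase II, and 8 of its genes were followed here through 5 conditions: CDK7, CCNH, MNAT1, ERCC2, ERCC3, GTF2H1, GTF2H3 and GTF2H4. Members were the introns and exons whose GRCh37 splice sites match these genes in GENCODE release 44 mapped to GRCh37. This gave 125 of 126404 listed introns and 259 of 270665 listed exons, from 8 of 10941 genes with a listed intron. Poly(A)+ RNA was sequenced from the lung adenocarcinoma line A549 under 1 or 2 μg/mL α-amanitin for 24 h, 10 or 25 μg/mL DRB, or DMSO, with 2 libraries per condition. α-Amanitin, a toxin of death cap mushrooms, slows RNA polymerase II, and DRB inhibits kinases that release the paused polymerase. For DRB and DMSO, the duration is not given in the sources. DMSO served as the control for all 4 treatments. CDK7 was selected on the inclusion of its exon starting at chr5:68551287, measured at 2 μg/mL α-amanitin against DMSO, so its values in that contrast are given as a description, with no test.

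CDK7, its partner cyclin H (CCNH) and the assembly factor MAT1 (MNAT1) form the kinase module of TFIIH, which phosphorylates the C-terminal tail of RNA polymerase II and activates cell-cycle kinases. The core of the complex holds the translocase XPB (ERCC3), the helicase XPD (ERCC2) and the structural subunits p62 (GTF2H1), p34 (GTF2H3) and p52 (GTF2H4). The same core opens DNA around lesions in nucleotide excision repair, and inherited mutations of ERCC2 and ERCC3 cause xeroderma pigmentosum.

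The deposited values are counts of split reads, which cross a splice junction, and of unspliced reads, which run over an exon boundary into the intron. Split reads over introns came to between 2899344 and 6498515 per library. The 25 μg/mL DRB libraries stood apart. They list 45513 and 60620 introns, against 74739 to 90955 in the other 8 libraries, and unspliced reads make up 51.5% and 67.3% of their intron reads, against 26.5 to 42.2%. Of the 101 junctions of the members' main transcripts, 16 and 52 are listed at 25 μg/mL DRB, against 92 to 99 elsewhere. An intron without other reads is listed only from 11 split reads, so a missing intron may hold up to 10 reads in any library, and gene sums leave such reads out. The authors also filtered junctions by the entropy of read offsets, annotation and splice-site bases, so a missing intron could hold more. Replicates differed beyond sampling noise in every condition (chi-squared over its degrees of freedom, 7.06 to 17.2). The labels do not say whether replicates were separate cultures, so p-values cover only the spread seen here, which may be technical. Of 9 genes expected in A549 cells, 4 (KRT8, KRT18, ALDH1A1 and NQO1) had split reads in every library and 3 (KRT19, EPCAM and CDH1) had no listed intron. Of 7 markers of blood, endothelium, fibroblasts and liver, COL1A1 was listed in 9 libraries and the other 6 in none.

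In DMSO, 7 of the 8 genes were spliced at similar levels and ERCC2 lay lower. Levels are given as CPM, split reads scaled to a common library size, per junction of the main transcript, so that genes with more introns do not count more. CDK7 had the highest mean, 8.64 ± 1.31 (SD, n = 2), and the 2 DMSO libraries of GTF2H3, at 7.93 and 8.0, lay within its spread. GTF2H1 followed at 7.10 ± 1.24, and CCNH, GTF2H4, ERCC3 and MNAT1 lay between 5.79 and 6.42. Each neighbour in this order overlapped the next over the libraries down to MNAT1. ERCC2 came last at 2.65 ± 0.64, below every DMSO library of the other members, with 18 and 15 of its 22 junctions listed.

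**Figure D1:**
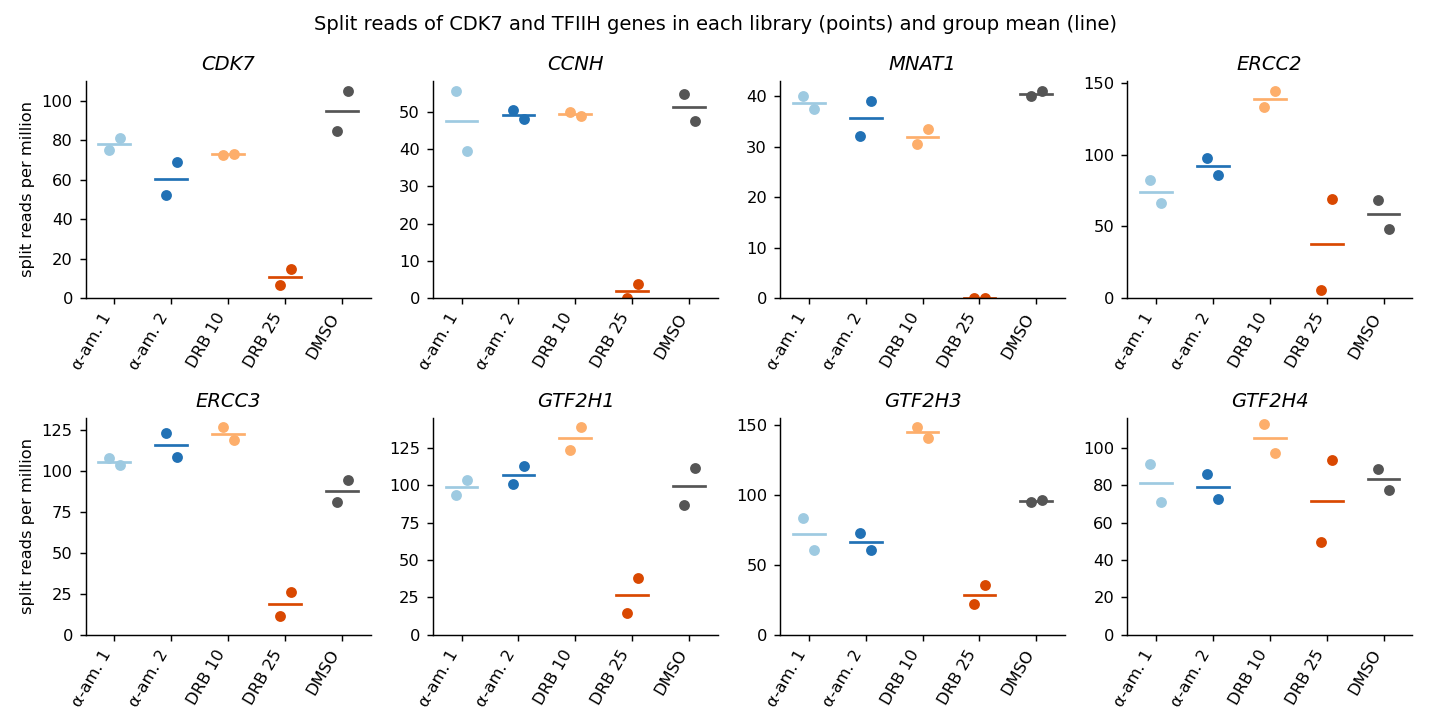
CPM, the split reads scaled to library size (vertical axes, linear, from 0) of the 8 genes in each of the 10 libraries (points) with the mean of the 2 libraries (lines), by condition with doses in μg/mL. The 2 libraries at 25 μg/mL DRB lie below all other libraries for CDK7, CCNH, MNAT1, ERCC3, GTF2H1 and GTF2H3, while for GTF2H4 and ERCC2 they lie far apart, at 49.8 and 93.3 for GTF2H4 and 5.83 and 69 for ERCC2.

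The kinase module was lowest at 25 μg/mL DRB, where CDK7, CCNH and MNAT1 fell. CDK7 had 75.1 and 81.2 CPM with 1 μg/mL α-amanitin, 52.1 and 69 with 2 μg/mL, 72.6 and 73.0 with 10 μg/mL DRB, and 6.73 and 14.9 with 25 μg/mL DRB, against 84.8 and 105 in DMSO. No treated library of CDK7 reached the lower DMSO library. CCNH had 55.6 and 39.5 CPM with 1 μg/mL α-amanitin, 50.5 and 48.2 with 2 μg/mL, 50.1 and 49.0 with 10 μg/mL DRB, and 0 and 3.72 with 25 μg/mL DRB, against 55 and 47.7 in DMSO. Outside 25 μg/mL DRB, the libraries of CCNH overlapped those of DMSO. MNAT1, which spans 235224 nt and is the longest of the 8 genes, had 40.1 and 37.4 CPM with 1 μg/mL α-amanitin, 32.2 and 39.1 with 2 μg/mL, and 30.5 and 33.5 with 10 μg/mL DRB, against 40.1 and 41.0 in DMSO. No intron of MNAT1 was listed in either library at 25 μg/mL DRB.

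The helicase genes were higher at 10 μg/mL DRB in each library than in either DMSO library. ERCC2 had 81.9 and 66.0 CPM with 1 μg/mL α-amanitin, 97.6 and 85.9 with 2 μg/mL, 133 and 144 with 10 μg/mL DRB, and 5.83 and 69 with 25 μg/mL DRB, against 68.3 and 48.3 in DMSO. ERCC3 had 108 and 104 CPM with 1 μg/mL α-amanitin, 123 and 109 with 2 μg/mL, 127 and 119 with 10 μg/mL DRB, and 11.2 and 26.3 with 25 μg/mL DRB, against 81.4 and 94.8 in DMSO. The treated libraries of ERCC3 lay above both DMSO libraries in 3 conditions and below both at 25 μg/mL DRB. In bulk samples, fewer cells and less RNA per cell cannot be told apart, nor can a scale change shared by all genes.

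Of the structural subunits, GTF2H3 moved most at 10 μg/mL DRB. GTF2H3 had 83.2 and 60.1 CPM with 1 μg/mL α-amanitin, 72.5 and 60.3 with 2 μg/mL, 149 and 141 with 10 μg/mL DRB, and 21.5 and 35.2 with 25 μg/mL DRB, against 95.1 and 96.0 in DMSO. Its α-amanitin libraries lay below both DMSO libraries and its 10 μg/mL DRB libraries above both. GTF2H1 had 93.8 and 103 CPM with 1 μg/mL α-amanitin, 101 and 113 with 2 μg/mL, 124 and 139 with 10 μg/mL DRB, and 14.8 and 37.8 with 25 μg/mL DRB, against 87.1 and 112 in DMSO. GTF2H4, the shortest of the 8 genes at 5900 nt, had 91.5 and 70.8 CPM with 1 μg/mL α-amanitin, 85.9 and 72.5 with 2 μg/mL, 113 and 97.0 with 10 μg/mL DRB, and 49.8 and 93.3 with 25 μg/mL DRB, against 88.7 and 77.5 in DMSO. At 25 μg/mL DRB its higher library lay above both DMSO libraries and its lower library below both. The remaining core subunits were measured less well. GTF2H5, the small subunit p8, had a mean of 14.2 ± 6.2 CPM at 25 μg/mL DRB, against 11.5 ± 0.95 in DMSO (SD, n = 2). GTF2H2, which encodes p44, had 2.69 and 0 CPM at 25 μg/mL DRB, against 56.8 and 102 in DMSO, and is uncertain because near-identical copies of it lie on chromosome 5.

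The first test asked which of the 8 genes differed between 10 μg/mL DRB and DMSO, and 1 did. Split reads summed per gene were scaled by TMM and tested with limma voom over all genes of 6 libraries (DMSO and both doses of a drug). An adjusted p below 0.05 was the threshold, and all 8 genes passed the filter on low counts in both fits. GTF2H3 rose by 0.60 ± 0.13 on the log2 scale (SE; adjusted p = 0.0387) and was higher in 2 of 2 libraries. Of the 9501 genes tested, 14.8% were called at this dose, 8.25% as higher and 6.53% as lower, so 1 of 8 is near the background. ERCC2 had the largest difference, 1.30 ± 0.42 (adjusted p = 0.0985), and ERCC3 had 0.48 ± 0.17 (adjusted p = 0.125), so neither passed. GTF2H1 (0.42, adjusted p = 0.226), GTF2H4 (0.34, adjusted p = 0.36), MNAT1 (-0.33, adjusted p = 0.32) and CDK7 (-0.37, adjusted p = 0.231) did not pass either. The members' median was 0.38, against 0.03 over all genes. The call of GTF2H3 was lost with limma-trend (adjusted p = 0.257). With any of the 4 libraries left out, 0 of all genes passed at this dose (lowest adjusted p 0.0572 to 0.106, limma voom), so those fits do not bear on GTF2H3. Inclusion reads were also summed over all annotated exon forms, an alternative chosen after seeing the data. There ERCC2 passed with 1.11 (adjusted p = 0.0213, limma voom) and GTF2H3 with 0.63 (adjusted p = 0.022). Overlapping forms share reads, so these sums count such reads more than once.

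At 25 μg/mL DRB, 6 of the 8 genes fell relative to DMSO: MNAT1, CCNH, CDK7, ERCC3, GTF2H1 and GTF2H3. At this dose 61.3% of the genes tested were called, 41.1% as lower and 20.2% as higher, and the median over all genes was -1.01 on the log2 scale (-1.49 when scaled by total split reads). The falls of CDK7 (-3.23 ± 0.45, adjusted p = 0.00216), ERCC3 (-2.30 ± 0.42, adjusted p = 0.00558), GTF2H1 (-1.96 ± 0.46, adjusted p = 0.0142) and GTF2H3 (-1.74 ± 0.29, adjusted p = 0.00398) exceeded that median in limma voom. CCNH (adjusted p = 0.00571) and MNAT1 (adjusted p = 0.000541) fell furthest in the fit, but their fold changes rest on 13 split reads and on none. GTF2H4 had -0.17 ± 0.30 (adjusted p = 0.621) and ERCC2 -1.25 ± 0.89 (adjusted p = 0.269), and neither passed. Leaving out the lower library at 25 μg/mL DRB (replicate 1) turned both differences positive, to 0.15 for GTF2H4 and 0.25 for ERCC2. MNAT1 lost its call without either 25 μg/mL DRB library (adjusted p = 0.0877 and 0.164), CCNH without replicate 2 (adjusted p = 0.169) and GTF2H1 without DMSO replicate 2 (adjusted p = 0.0506). With only introns listed in every library, ERCC3 (adjusted p = 0.0765) and GTF2H1 (adjusted p = 0.0637) did not pass.

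How far these genes fell depends on what the unlisted introns hold. As an alternative chosen after seeing the data, every unlisted intron was given 10 reads, a value set by the lowest listed count. CDK7 was then 2.20-fold lower at 25 μg/mL DRB than in DMSO, CCNH 1.72-fold and MNAT1 1.58-fold. These are not firm limits, because the other junction filters could hide more reads. On the log2 scale that filling gave -1.21 for CDK7, -0.91 for GTF2H3, -0.88 for CCNH, -0.82 for GTF2H1, -0.79 for ERCC3, -0.76 for MNAT1, -0.14 for GTF2H4 and 0.20 for ERCC2. Exons are listed from 6 reads in all, a number reached by a CCNH exon with only skipping reads. Reads counted at exons lose less because an inner exon pools the reads of both its junctions. Yet the exons of ERCC2 and GTF2H1 listed on inclusion reads alone held at least 11. An unlisted exon may thus hold inclusion reads that the following levels leave out. By inclusion reads scaled to library size, the level at 25 μg/mL DRB was 8.43% of that in DMSO for MNAT1, 12.8% for CCNH, 20.2% for CDK7, 28.8% for ERCC3, 37.0% for GTF2H1, 44.4% for GTF2H3, 89.3% for GTF2H4 and 116% for ERCC2. These shares rest on few reads for the kinase module: MNAT1 had 0 and 42 inclusion reads at 25 μg/mL DRB, against 312 and 349 in DMSO, and CCNH 0 and 83, against 439 and 414. CDK7 had 47 and 151 reads, against 623 and 864. Limma voom was run on other sums, of inclusion reads over every annotated exon form of a gene. Overlapping forms share reads, so these sums count such reads more than once and the p-values treat them as separate. In this limma voom fit the same 6 genes passed as lower, CDK7 with -1.84 (adjusted p = 0.0027) and GTF2H3 with -1.08 (adjusted p = 0.0032). The median over all genes was -0.74.

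The 2 doses of DRB also differed directly. At 25 μg/mL, 7 of the 8 genes were lower than at 10 μg/mL, where 63.3% of all genes tested were called, 43.7% as lower and 19.5% as higher. The 7 were all but GTF2H4, which had -0.51 ± 0.29 (adjusted p = 0.166, limma voom). The log2 difference was -2.54 ± 0.86 for ERCC2 (adjusted p = 0.0442) and -2.85 ± 0.45 for CDK7 (adjusted p = 0.00328). ERCC2 lost this call without either 10 μg/mL DRB library (adjusted p = 0.0979 and 0.125). GTF2H4 gained one without replicate 2 at 25 μg/mL (-1.09, adjusted p = 0.0208) and when scaled by total split reads (-1.12, adjusted p = 0.00709).

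No tested member passed the threshold under α-amanitin in limma voom as set up above or in limma-trend. At 2 μg/mL, ERCC2 and GTF2H3 passed in limma voom with a replicate block, although the labels do not pair the replicates. With only introns listed in every library, 1 tested member passed at 2 μg/mL. Both results are given with the alternatives at the end. At 1 μg/mL the 8 genes lay between -0.46 for GTF2H3 (adjusted p = 0.48) and 0.35 for ERCC2 (adjusted p = 0.595) in limma voom, with 0 of 8 called and 0.0% of 9644 genes called. GTF2H3 alone had an unadjusted p below 0.05, and limma-trend called 0 as well. At 2 μg/mL 0 of the 7 genes other than CDK7 passed, against 6.33% of all genes (2.45% higher and 3.88% lower), and 3 had an unadjusted p below 0.05. These were ERCC2 (0.69 ± 0.20, adjusted p = 0.0825), ERCC3 (0.40 ± 0.13, adjusted p = 0.106) and GTF2H3 (-0.53 ± 0.18, adjusted p = 0.116). Limma-trend again called 0. Between 2 and 1 μg/mL 0 of 8 genes passed by either tool, with 0.0% of all genes called and no member at an unadjusted p below 0.05. The level of CDK7 at 2 μg/mL was 60.6 ± 11.9 CPM, against 95 ± 14.4 in DMSO, a log2 difference of -0.64.

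**Figure D2:**
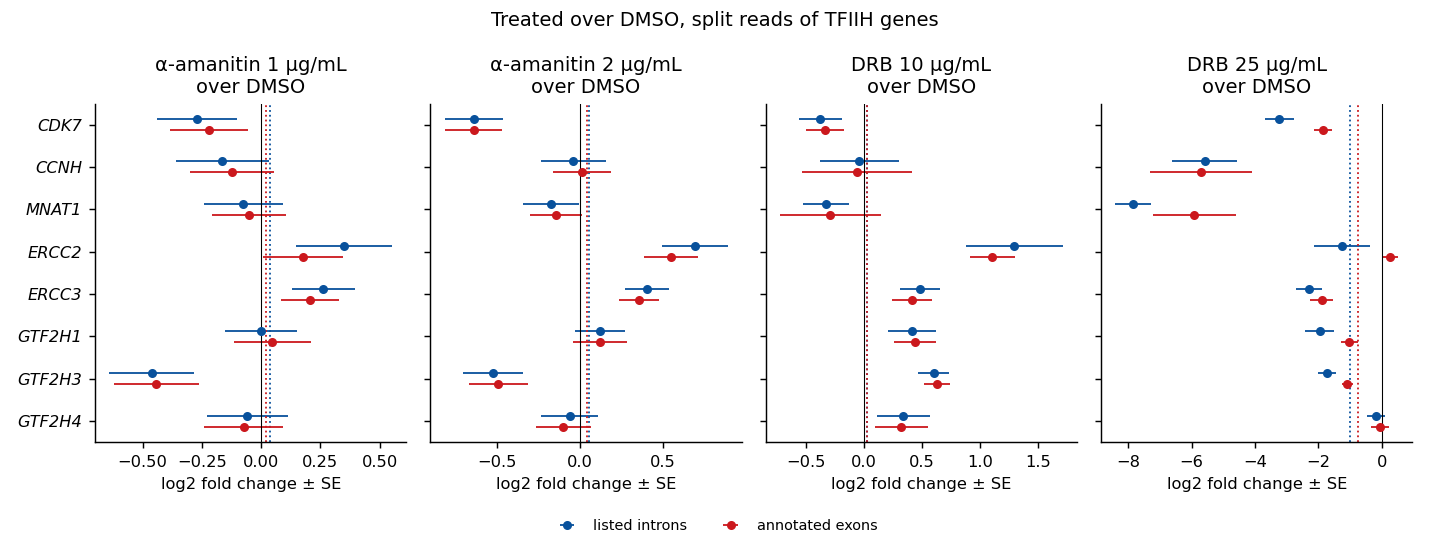
Log2 fold change over DMSO (horizontal axes, which differ in scale between panels) with its standard error for the 8 genes, from listed introns (blue) and from annotated exons (red). The exon sums take in all annotated forms and count reads shared by overlapping forms more than once. Dotted lines mark the median over all genes tested. At 25 μg/mL DRB that median is -1.01 for introns and -0.74 for exons, and CDK7 lies below it in both.

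Splicing of CDK7 turned on the stretch between exons 2 and 6. CDK7 lies on the plus strand at chr5:68530622-68573257 and its main transcript has 12 exons. The exon of interest starts at chr5:68551287 and is listed in 2 forms. The 69-nt form, chr5:68551287-68551355, is coding exon 5 of the main transcript. The 562-nt form, chr5:68551287-68551848, runs into the next intron and is annotated only in a CDK7 transcript classed as retained intron. No split reads leave the 562-nt form, so its inclusion is counted on 1 side and comes out lower. The splice sites of exons 2 to 6 are printed from GRCh37, plus strand, because the listed skipping reads join exon 2 or 3 to exon 6. Exon bases are in capitals and intron bases in lower case.
CDK7 exon 2 donor, chr5:68531278-68531286: AAAgtgagt
CDK7 exon 3 acceptor, chr5:68548225-68548247: tttttttccgtttctaccagATC
CDK7 exon 3 donor, chr5:68548276-68548284: ATGgtaagt
CDK7 exon 4 acceptor, chr5:68550409-68550431: tgctttgcctttttatatagGTA
CDK7 exon 4 donor, chr5:68550494-68550502: GGTgtgagt
CDK7 exon 4 upstream donor, chr5:68550492-68550500: TTGgtgtga
CDK7 exon 5 acceptor, chr5:68551267-68551289: ttaattttttaactttgcagCTC
CDK7 exon 5 donor, chr5:68551353-68551361: GAGgtaaga
CDK7 exon 6 acceptor, chr5:68553850-68553872: attgtatacttgctttacagGTT

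Each site was scored by its match to the base frequencies of 64381 introns listed in both DMSO libraries. The 2 donors of exon 4 stood low, at the 10.1 and 5.23 percentile of all donors. The donors of exons 2, 3 and 5 were at the 64.5, 86.5 and 84.6 percentile, and the 4 acceptors between the 70.5 and 88.2 percentile. The exon 4 donors lie 2 nt apart. The junction that leaves the upstream donor is listed only in DMSO replicate 2, with 3 reads, against 11 to 23 reads from the other donor in the libraries that list it, so the inclusion reads of the 66-nt form are those that enter exon 4 and do not show that its donor was used. These scores describe the letters and were not tested against skipping.

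Exons 4 and 5 of CDK7 were included in every listed read of DMSO and were partly skipped in both α-amanitin conditions. Inclusion (Ψ) is the number of inclusion reads divided by inclusion reads plus 2 times the skipping reads. With 1 μg/mL α-amanitin, the 69-nt exon 5 had 38 inclusion and 5 skipping reads in the first library, and 71 inclusion and 10 skipping reads in the second. With 2 μg/mL it had 25 inclusion and 8 skipping reads, and 48 inclusion and 18 skipping reads. With 10 μg/mL DRB it had 36 inclusion and 3 skipping reads, and 50 and 0, and with 25 μg/mL DRB only replicate 2 lists it, with 9 and 4. In DMSO it had 48 and 73 inclusion reads and no skipping reads. Ψ was thus 78.6% ± 0.81 at 1 μg/mL α-amanitin, 59.1% ± 2.7 at 2 μg/mL and 92.9% ± 10.1 at 10 μg/mL DRB (SD, n = 2 each), with 52.9% in the single library at 25 μg/mL DRB, and 100% in both DMSO libraries. The α-amanitin libraries did not overlap DMSO at either dose, and those at 2 μg/mL lay below those at 1 μg/mL. The exon was chosen on its inclusion at 2 μg/mL against DMSO, so that gap and the order of the doses are only a description. The gap at 1 μg/mL rests on the same DMSO libraries. The 68-nt exon 4 gave 77.9% ± 6.9 at 1 μg/mL α-amanitin and 61.2% ± 5.7 at 2 μg/mL, against 100% in DMSO.

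The 562-nt form gave the same order from part of the same reads. Its inclusion reads are those that enter the start of exon 5, which are also counted for the shorter form. Its skipping reads are those of the shorter form. Its Ψ is therefore no separate measurement and does not show that the 562-nt form was made. With 1 μg/mL α-amanitin the 562-nt form had 15 inclusion and 5 skipping reads, and 21 and 10. With 2 μg/mL it had 9 and 8, and 16 and 18, against 15 and 26 inclusion reads and no skipping reads in DMSO. Ψ was 55.6% ± 6.2 at 1 μg/mL, 33.4% ± 3.7 at 2 μg/mL, and 100% in both DMSO libraries. At 10 μg/mL DRB it was 71.4% and 100%, and at 25 μg/mL DRB 27.3% in the library that lists it. At 1 μg/mL α-amanitin 5 exon forms of CDK7 (exons 3, 4 in both forms and 5 in both forms) were tested with a quasi-binomial model whose spread was moderated by limma. None passed, with an adjusted p of 0.356 for the forms of exons 4 and 5 and 0.421 for exon 3 in this model. All 5 had an unadjusted p below 0.05. With no skipping reads listed in DMSO, each form could only come out as lower, so these p-values are a description and not independent support. The 5 forms share skipping reads, the forms of exon 4 and those of exon 5 also share inclusion reads, and the test shares its DMSO libraries with the contrast that chose the exon.

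**Figure D3:**
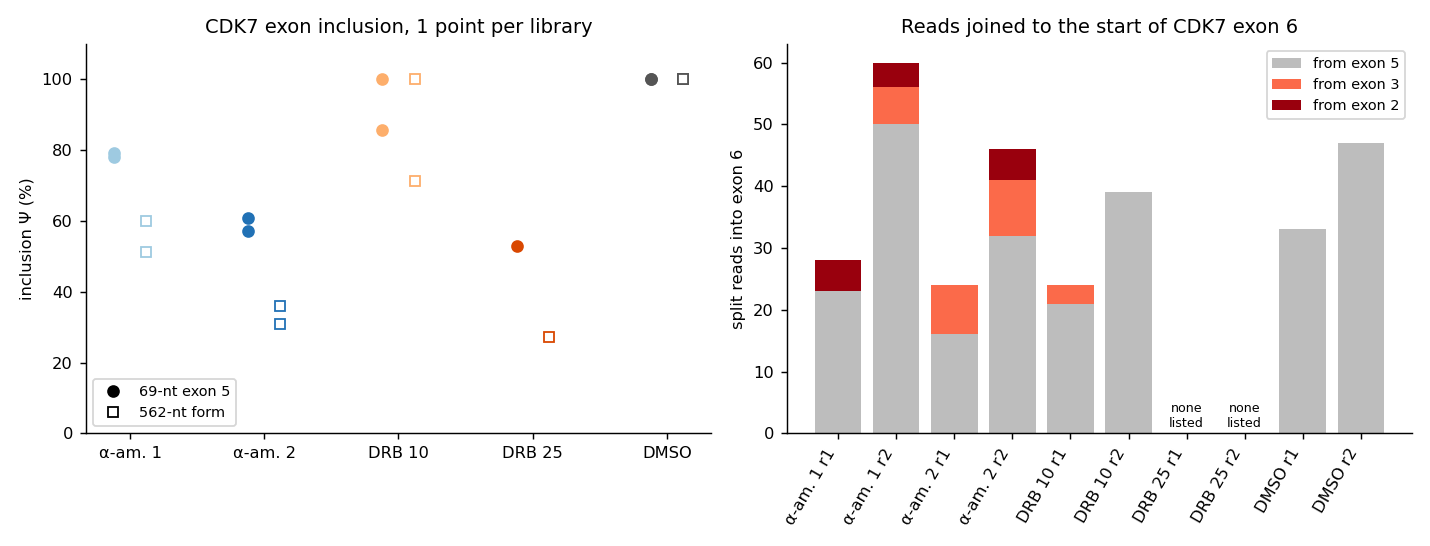
Left, inclusion Ψ (%) of the 69-nt exon 5 (filled circles) and of the 562-nt form (open squares), 1 point per library, where both DMSO points lie at 100%. Right, split reads joined to the start of exon 6 in each library, by the exon they come from; skipping reads are 5 of 28 and 10 of 60 at 1 μg/mL α-amanitin, 8 of 24 and 14 of 46 at 2 μg/mL, 3 of 24 and 0 of 39 at 10 μg/mL DRB, and 0 of 33 and 0 of 47 in DMSO.

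The skipping reads could be placed at the start of exon 6. Of the split reads that end there, the share that came from exon 2 or 3 was 17.9% (95% exact binomial interval 6.06 to 36.9) and 16.7% (8.29 to 28.5) at 1 μg/mL α-amanitin. It was 33.3% (15.6 to 55.3) and 30.4% (17.7 to 45.8) at 2 μg/mL. At 10 μg/mL DRB it was 12.5% (2.66 to 32.4) in replicate 1 and 0 of 39 (0 to 9.03) in replicate 2. In DMSO it was 0 of 33 (0 to 10.6) and 0 of 47 (0 to 7.55). Junctions into exon 6 are not listed at 25 μg/mL DRB. These intervals cover counting error only. No junction is listed with fewer than 3 reads, so each of the 2 skipping junctions may hold 2 more reads or, given the other junction filters, more. The true upper ends at 0 are higher.

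The skipping reads used 2 junctions. One, chr5:68548278-68553870, joins exon 3 to exon 6 and is annotated, with 8 and 9 reads at 2 μg/mL α-amanitin, 6 in replicate 2 at 1 μg/mL and 3 in replicate 1 at 10 μg/mL DRB. It removes exons 4 and 5, 137 coding nt, which is not a multiple of 3. The other, chr5:68531280-68553870, joins exon 2 to exon 6 and is not annotated, although both of its sites are. It had 5 and 4 reads at 1 μg/mL α-amanitin and 5 in replicate 2 at 2 μg/mL, and it removes exons 3 to 5, 171 coding nt, a multiple of 3. Neither junction was listed in DMSO. In replicate 2 at 2 μg/mL the 18 skipping reads of exon 5 exceeded the 14 of these junctions by 4, and the same 4 reads are counted as skipping for exons 3 to 12, so they come from no junction that ends at exon 6. Without them, an alternative chosen after seeing the data, Ψ of the 69-nt exon was 63.2% in that library and 62.1% ± 1.5 at 2 μg/mL (SD, n = 2), and that of the 562-nt form 36.2% ± 0.26.

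**Figure D4:**
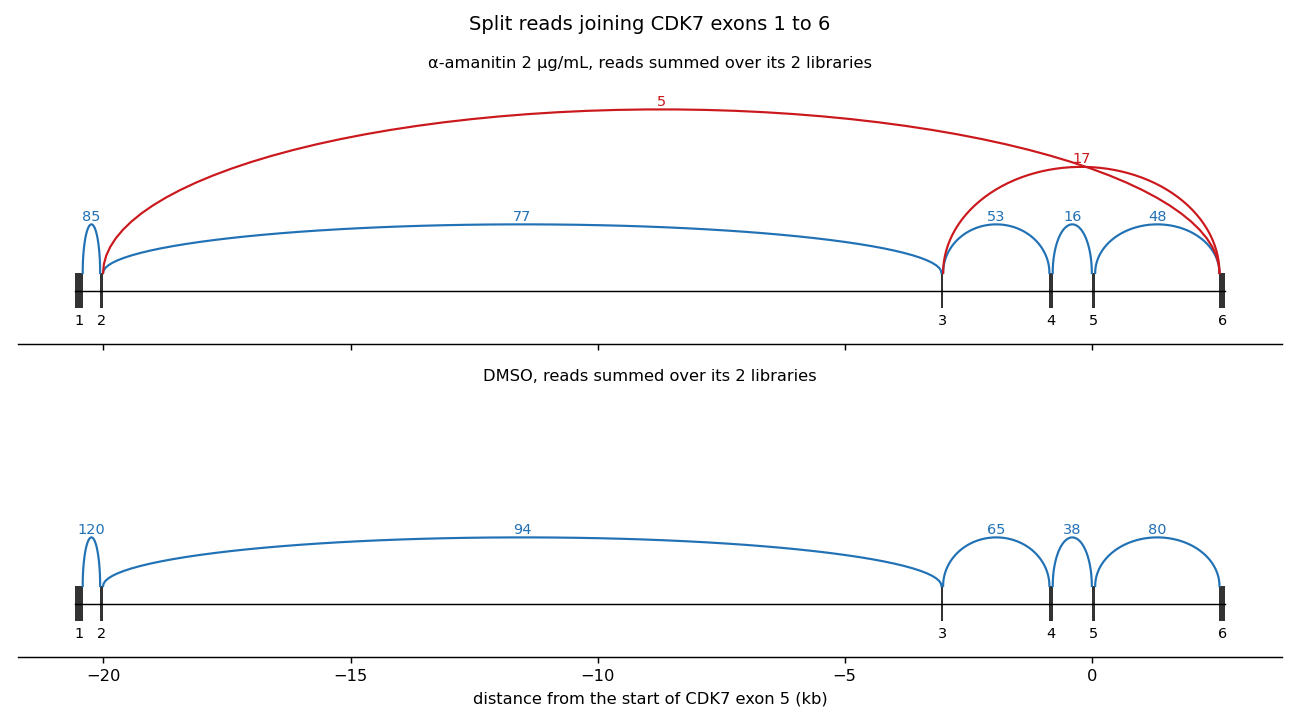
Split reads joining CDK7 exons 1 to 6 at 2 μg/mL α-amanitin (top) and in DMSO (bottom), summed over 2 libraries; the horizontal axis is the distance in kb from the start of exon 5, drawn to scale, and the height of an arc has no meaning. The junctions that skip exon 5 (red) hold 17 and 5 reads at 2 μg/mL and none in DMSO. The junction of exons 4 and 5 holds 16 reads at 2 μg/mL, where 1 of the libraries does not list it, and 38 in DMSO.

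The called changes of splicing at 25 μg/mL DRB were in exon 12 and intron 10 of GTF2H4. Among the members, only GTF2H4 and ERCC2 had exons that could be tested there, and only GTF2H4 had introns. The other members were therefore not compared. GTF2H4 lies on the plus strand of chromosome 6, chr6:30875984-30881883. The splice sites of exons 10 to 13 are printed from GRCh37, plus strand, because they flank both changes. Exon bases are in capitals.
GTF2H4 exon 10 donor, chr6:30879921-30879929: CGGgtgagg
GTF2H4 exon 11 acceptor, chr6:30880085-30880107: tctttctatccctggctcagAGT
GTF2H4 exon 11 donor, chr6:30880233-30880241: CAGgtattc
GTF2H4 exon 12 acceptor, chr6:30880867-30880889: attcttgtctgttttcctagATA
GTF2H4 exon 12 donor, chr6:30880932-30880940: CAGgtatag
GTF2H4 exon 13 acceptor, chr6:30881066-30881088: tcaacccttgctccttgcagACA

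The donors of exons 11 and 12 were at the 13.2 and 19.2 percentile of donors, and that of exon 10 at the 47.8 percentile. Exon 12, 48 nt at chr6:30880887-30880934, had 16 and 42 inclusion reads with 4 and 8 skipping reads at 25 μg/mL DRB, against 60 and 61 inclusion reads and no skipping reads in DMSO. Both libraries at 25 μg/mL DRB held skipping reads and neither DMSO library listed any. No skipping count above 0 was below 3 in any library, so a 0 may stand for fewer than 3 reads. The fit takes it as 0. Ψ was 66.7% and 72.4% at 25 μg/mL DRB, against 100% in both DMSO libraries, and the exon passed as lower (log2 odds -5.70, adjusted p = 0.0188, quasi-binomial model with limma). Exon 12 reached the minimum of 10 skipping reads over the fit only through this condition. With none listed in DMSO it could only come out as lower, so its call is a description and not independent support. It was the only call among 22 member exons tested, the other 21 being exons of ERCC2, where 51.1% of all exons tested were called, 43.4% as lower and 7.69% as higher. At 10 μg/mL DRB, 91 and 88 inclusion reads stood beside 4 and 0 skipping reads, the difference did not pass (adjusted p = 0.355), and 0 of the 22 exons passed, with 5 at an unadjusted p below 0.05, 0 called by limma on log odds and 0.0276% of all exons called. The skipping junction, chr6:30880235-30881086, is not annotated. With any of the 4 libraries left out, 0 of all exons passed (lowest adjusted p 0.0557 to 0.106), so those fits do not bear on exon 12, which without the second 25 μg/mL DRB library was below the minimum of 10 skipping reads and was not tested.

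Intron 10 of GTF2H4 held a larger share of unspliced reads at 25 μg/mL DRB than in DMSO. For this intron, 181 nt, 6 of 38 and 3 of 55 reads were unspliced with 1 μg/mL α-amanitin, and 4 of 34 and 0 of 45 with 2 μg/mL. With DRB they were 4 of 50 and 0 of 42 (10 μg/mL), and 5 of 11 (45.5%) and 13 of 40 (32.5%) (25 μg/mL), against 0 of 33 and 0 of 39 in DMSO. No unspliced count above 0 was below 3 on either side of a member intron. A 0 may therefore stand for fewer than 3 reads on each side. The difference passed at 25 μg/mL DRB (log2 odds 6.32, adjusted p = 0.04, same model), as 1 of 2 member introns tested, both of GTF2H4. Of all introns 11.1% were called, 7.65% as higher and 3.48% as lower. Intron 10 reached the minimum of 10 unspliced reads over the fit only through this condition. With none listed in DMSO it could only come out as higher, so its call is a description and not independent support. With any of the 4 libraries left out, or with only the 2 groups in the fit, 0 of all introns passed (lowest adjusted p 0.0627 to 0.217), so those fits do not bear on intron 10, which without the second 25 μg/mL DRB library had too few unspliced reads to be tested. At 10 μg/mL DRB it did not pass (adjusted p = 0.564), and 0 of the 2 member introns passed by either this model or limma on log odds (0 at an unadjusted p below 0.05), with 0.0% of 6892 introns called. Unspliced reads were also 51.5% and 67.3% of all intron reads in the 25 μg/mL DRB libraries, and their part in the GTF2H4 values was not tested.

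Intron 9, 246 nt, had 13.8% and 13.6% unspliced reads at 1 μg/mL α-amanitin, 28.8% and 21.6% at 2 μg/mL, 45.8% and 23.4% at 10 μg/mL DRB, and 76.9% in the 25 μg/mL DRB library that lists it, against 8.16% and 0% in DMSO. All 7 treated libraries that list the intron lay above both DMSO libraries. At 2 μg/mL α-amanitin the log2 odds were 2.65 (adjusted p = 0.242) and at 1 μg/mL 1.58 (adjusted p = 0.714), so neither passed. Of the 7 member introns tested in the α-amanitin fit, 0 passed at either dose by this model or by limma on log odds (0 at an unadjusted p below 0.05 at 1 μg/mL and 1 at 2 μg/mL), against 0.0% of introns called with 1 μg/mL and 0.0213% with 2 μg/mL.

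**Figure D5:**
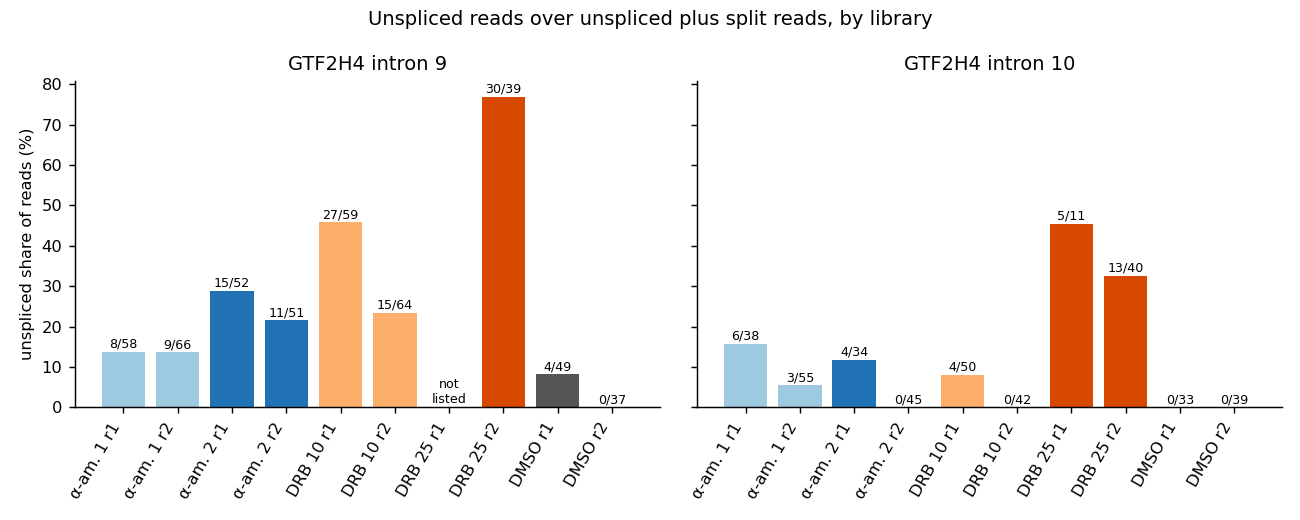
Unspliced reads as a percentage of unspliced plus split reads (vertical axis) in introns 9 and 10 of GTF2H4 in each library, with the unspliced and total reads above each bar. Intron 10 is at 0% in both DMSO libraries and at 45.5% and 32.5% at 25 μg/mL DRB, and intron 9 reaches 76.9% there.

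In ERCC3 and GTF2H1, introns with unspliced reads were also found in DMSO. Intron 5 of ERCC3, 187 nt, had 26.5% and 29.4% unspliced reads at 1 μg/mL α-amanitin, 17.0% and 18.2% under 2 μg/mL, and 8.33% and 17.6% with 10 μg/mL DRB, against 33.3% and 32.4% in DMSO. Every treated library that lists it lay below both DMSO libraries. In DMSO its unspliced reads were 3 and 0 at the donor and 6 and 11 at the acceptor. Another annotated acceptor, chr2:128047095, lies just inside this intron and is listed in DMSO replicate 2. Intron 9 of GTF2H1, 3961 nt, had 31.6% and 23.1% with 1 μg/mL α-amanitin, 26.4% and 22.6% with 2 μg/mL, 10.5% and 9.09% with 10 μg/mL DRB, and 33.3% in the 25 μg/mL DRB library that lists it, against 41.9% and 19.0% in DMSO. Both libraries at 10 μg/mL DRB lay below both DMSO libraries, and the other treated libraries lay within the DMSO range. In DMSO the unspliced reads of this intron were 13 and 8 at the donor and 0 and 0 at the acceptor. An annotated exon form, chr11:18369379-18370378, runs past that donor. Reads at 1 side do not show that the whole intron was kept. The other members' most variable introns ranged over 12.5 percentage points or less between conditions, with reads pooled per condition. Over all 101 junctions, the members' unspliced share was 6.37% and 5.86% at 25 μg/mL DRB, against 1.11 to 2.67% in the other 8 libraries.

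In ERCC3, skipping of exon 13 was listed only at 2 μg/mL α-amanitin. This 119-nt exon, chr2:128018804-128018922 on the minus strand, had 100 and 97 inclusion reads and 8 and 3 skipping reads in that condition, against 52 and 50 inclusion reads and no skipping reads in DMSO. Ψ was 86.2% and 94.2% at 2 μg/mL α-amanitin and 100% in each of the other libraries that list the exon. No skipping count above 0 was below 3, so a Ψ of 100% may hide fewer than 3 skipping reads. The difference did not pass (log2 odds -3.58, adjusted p = 0.151, quasi-binomial model with limma). Exon 13 reached the minimum of 10 skipping reads over the fit only through this condition. With none listed in DMSO it could only come out as lower, so its p-value is a description and not independent support. Outside CDK7, 0 of the 4 member exons tested at 2 μg/mL passed, where 0.029% of all exons did. Exon 13 was the 1 exon with an unadjusted p below 0.05. At 1 μg/mL 0 of 9 member exons passed, with 0.0% of all exons called. An unadjusted p below 0.05 was given to 7, of which 5 are the CDK7 forms, which share skipping reads with each other and DMSO libraries with the contrast that chose the exon, and 2 are forms of a GTF2H1 exon with identical reads. Limma on log odds called 0 at both doses. The skipping junction of ERCC3 exon 13, chr2:128017024-128028912, joins annotated sites of exons 12 and 14 and is not annotated itself. The 119-nt exon carries an acceptor at the 97.3 percentile and a donor at the 24.9 percentile.

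Skipping reads of ERCC2 came from a junction that spans the whole gene. The exons of ERCC2 share a junction from chr19:45742319 to chr19:45888820, 146500 nt, whose ends match EXOC3L2 and PPP1R13L and no site of ERCC2. It had 3 and 3 reads at 2 μg/mL α-amanitin, 6 and 4 at 10 μg/mL DRB and 6 in replicate 2 at 25 μg/mL DRB, and was not listed at 1 μg/mL α-amanitin or in DMSO. The 21 ERCC2 exons tested share these reads at both DRB doses. At 25 μg/mL DRB they had adjusted p between 0.0513 and 0.137 in the quasi-binomial model with limma. Values of Ψ in ERCC2 are therefore not a measure of skipping within the gene.

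The balance of split reads between the 3′ and the 5′ introns of a gene was also tested, with the quasi-binomial model and limma. At 1 and 2 μg/mL α-amanitin 0 of 8 and 0 of 7 members tested passed, and at 10 μg/mL DRB 0 of 4, with 0.0% of all genes called in each. Of these members 0, 1 and 0 in the same order had an unadjusted p below 0.05, and limma on log odds called 0. At 25 μg/mL DRB 0 of 4 passed, where 1.86% of all genes did (0.868% towards the 3′ and 0.996% towards the 5′ side) and 2 members had an unadjusted p below 0.05 (1 called by limma on log odds). The lowest adjusted p, 0.0779, was that of GTF2H3.

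The members were set beside 3 lists of related genes. Among 19 general transcription factors tested for DRB, 2 rose and 12 fell at 25 μg/mL DRB relative to DMSO, where 20.2% of all genes rose and 41.1% fell. TAF3 rose by 4.02 ± 0.45 (adjusted p = 0.00103, limma voom) and TAF10 by 1.06 ± 0.17 (adjusted p = 0.00337), both subunits of TFIID, while TAF2 and GTF2A1 fell to no listed intron. Among 20 genes of nucleotide excision repair, 5 rose and 8 fell at this dose, including a rise of XAB2, a partner of XPA, by 1.66 ± 0.12 (adjusted p = 0.000541) and of CETN2, which binds XPC, by 1.40 ± 0.27 (adjusted p = 0.00658). XPA and ERCC5, which encodes the nuclease XPG, had no listed intron at 25 μg/mL DRB. Of the 8 other transcription kinases and their cyclins, 3 rose and 4 fell. CCNK, the cyclin of CDK12 and CDK13, had 372 and 278 CPM at 25 μg/mL DRB, against 46.3 and 44.4 in DMSO, whereas CDK12 and CDK13 had no listed intron there. The medians were -2.66 for the transcription factors, -0.28 for the repair genes and -0.74 for the kinases, beside -2.13 for the 8 members and -1.01 for all genes. With 10 reads in every unlisted intron they were -0.23, 0.10, 0.49, -0.81 and 0.03 in the same order.

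At 10 μg/mL DRB, 2 of 19 transcription factors, 5 of 20 repair genes and 1 of 8 kinases rose and none fell, where 8.25% of all genes rose and 6.53% fell. XPC, the damage sensor that recruits TFIIH to lesions, rose by 1.92 ± 0.26 (adjusted p = 0.0119, limma voom), ERCC5 by 1.64 ± 0.36 (adjusted p = 0.0372), CCNK by 1.51 ± 0.23 (adjusted p = 0.0144), GTF2F1 of TFIIF by 0.79 ± 0.16 (adjusted p = 0.0312) and TAF3 by 2.31 ± 0.50 (adjusted p = 0.0362). At 2 μg/mL α-amanitin, XPC (1.56 ± 0.28, adjusted p = 0.0324), the damage sensor DDB2 (0.65 ± 0.14, adjusted p = 0.0457) and CCNK (0.72 ± 0.13, adjusted p = 0.0343) rose, which are 2 of 20 repair genes, 1 of 8 kinases and 0 of 20 transcription factors, where 2.45% of all genes rose. XPC had 59.6 and 46.5 CPM at 2 μg/mL α-amanitin and 67.2 and 67.3 at 10 μg/mL DRB, against 19.3 and 16.5 in DMSO. At 1 μg/mL α-amanitin 0 of 20 transcription factors, 0 of 20 repair genes and 0 of 8 kinases passed.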

How the data were processed

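The deposited tables list introns and exons of each library with raw counts of split and unspliced reads in a text field, and a score column holding Ψ. The authors aligned 75-nt reads to GRCh37 (hg19; STAR 2.7.3a in the submitters' processing notes) and counted junction reads with the IPSA pipeline. 0 columns belonged to other samples. Members and gene lists were chosen with earlier results of these data known.

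Introns and exons were matched to genes by splice sites. Introns shared by several genes were left out. Split reads per gene were scaled by TMM (30% and 5% trimmed) and tested with voom in limma 3.58.1 (R 4.3.3), for genes with 10 reads in 2 libraries and 15 over a fit, with DMSO and both doses of a drug in each fit. Exon inclusion (Ψ denominator of 10 in every library, 10 inclusion and 10 skipping reads over the fit), unspliced reads (10 reads in every library, 10 unspliced) and 3′ to 5′ balance (20 reads, 4 introns) were tested with a quasi-binomial model whose spread was moderated by limma with a floor of 1. P-values were adjusted by Benjamini-Hochberg over all features. The models were tested on simulated data, with no listing minimum and with exon changes only at well-covered, partly included exons. That run therefore does not cover sparse exons such as those named here. Named genes were the 8 members, GTF2H2 and GTF2H5, and per list and comparison the 2 largest rises and falls past the threshold; named exons and introns were those of the CDK7 region, the most variable of each member, and those past the threshold. The ERCC2-spanning junction was chosen after its values were seen. Alternatives covered scaling, filters, limma-trend, the groups in a fit, a replicate block and leaving out each library. Python 3.11.15, numpy 2.4.6, scipy 1.17.1, pandas 2.3.3 and matplotlib 3.10.9 were used.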

Additional observations from a re-analysis of the deposited data

Results flagged for a closer look

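ERCC3, GTF2H1 and GTF2H3 had CPM above both DMSO libraries at 10 μg/mL DRB and below both at 25 μg/mL DRB. Against DMSO all 3 passed as lower at 25 μg/mL, and only GTF2H3 passed as higher at 10 μg/mL, so opposite directions are not shown for ERCC3 and GTF2H1. The log2 fold change of 25 over 10 μg/mL DRB was -2.78 for ERCC3, -2.38 for GTF2H1 and -2.34 for GTF2H3, beside a median of -1.21 over all genes. Its sign follows from how the 3 genes were picked and is given as a description.

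A junction of 146500 nt that spans the whole of ERCC2, outside the introns used for any gene, reached 6 split reads in 1 library at each DRB dose and was listed in no DMSO library.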

How the results depend on the processing

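Over the alternatives run, 150 of the recomputed counts of calls and CDK7 levels stayed close to the reported value and 27 moved. For single members 407 values stayed, 17 moved, 30 lost and 14 gained a call, and 4 reversed. At 2 μg/mL α-amanitin, 0 members called became 1 with introns listed in every library. At 10 μg/mL DRB, 1 member called became 4 with those introns, 3 with only the 2 groups in the fit or with total split reads as scale, 2 with exon reads, and 0 with limma-trend, without the low-count filter or without any single library (0 to 0). At 25 μg/mL DRB, 6 members called became 2 with introns listed in every library, where 5 members could be tested, and the single called exon and intron became 0 without any single library (0 to 0 for each), not being tested without 25 μg/mL DRB replicate 2. In each of these fits without a library, at 10 μg/mL DRB for genes and at 25 μg/mL DRB for exons and introns, 0 features of the whole table passed, so they say nothing about stability. The intron was also lost with only the 2 groups (0), and the 3′ to 5′ balance gained 1 call with limma on log odds. ERCC2 at 25 μg/mL DRB reversed to 0.28 with exon reads and to 0.20 with unlisted introns at 10 reads, both chosen after seeing the data, and ranged from -3.26 to 0.25 when a library was left out. GTF2H4 ranged from -0.75 to 0.15. Without the skipping reads shared with exon 6, also chosen after seeing the data, inclusion of the 69-nt CDK7 exon at 2 μg/mL α-amanitin moved to 62.1%.

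The labels do not say that replicate numbers pair the samples. Deviations of same-numbered libraries correlated between 0.109 and 0.650 over 10 pairs of conditions. With the replicate block, calls were 2 at 2 μg/mL α-amanitin (ERCC2, adjusted p = 0.0111, and GTF2H3, adjusted p = 0.0357, limma voom), 0 at 10 μg/mL DRB, and 0 for exon inclusion and 0 for unspliced introns at 25 μg/mL DRB. In each of those exon and intron fits 0 of all exons and introns passed. Over all genes at 2 μg/mL α-amanitin the block gave 2118 calls, against 610 without it. An unlisted intron may hold 10 reads in every library or, given the other junction filters, more, and the 25 μg/mL DRB libraries list the fewest introns.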

Other observations

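Over the 10 libraries, the split reads of CDK7 varied most like those of DNMT1, the maintenance DNA methyltransferase (Pearson r of log2 CPM 0.998), MARK3 (0.997) and MRPS35, a mitochondrial ribosomal protein (0.997), among 4950 genes compared. These values are a description. They share the 2 libraries at 25 μg/mL DRB, which list the fewest introns, and over the other 8 libraries r was 0.961, 0.925 and 0.934 for the same genes.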
